A study of Mus musculus with 6 samples.

Results

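A set of 40 mouse genes of the cell cycle and DNA replication was followed in immature mice given BHPF or its vehicle, in their uterus, ovary and liver. The genes were chosen by name, not by their measured values, though with earlier results of these data known. They were 40 of the 20284 genes that could be given a symbol on the array. All 40 were found, on 51 probes, of which 32 genes had 1 probe, 5 had 2 and 3 had 3. Each of the 51 probes cleared the scanner software's background test on some array, and 46 did so on all 6, which is called well above background here. The genes were asked whether BHPF lowered proliferation in the immature uterus, as an anti-oestrogen would, and how the ovary and the liver compared with it.

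BHPF (fluorene-9-bisphenol) is a bisphenol used in place of bisphenol A. Female CD-1 mice, an outbred stock, received BHPF in peanut oil at 50 mg per kg body weight per day by oral gavage for 3 days, and the control mice received peanut oil alone. The labels gave an age of 24 days, and the study's own texts differed on whether dosing ended or began at that age. All mice were intact, so each kept its own ovaries as a source of oestrogen, and there was no group given oestradiol. RNA of 3 mice was pooled for each tissue and treatment, and each of the 6 pools (control uterus, BHPF uterus, control ovary, BHPF ovary, control liver, BHPF liver) was hybridised to 1 one-colour Agilent array. With 1 array in each group there was no replicate, so no test of BHPF against control could be made and no p-value is given. Because whole tissue was used, fewer cycling cells and less RNA per cycling cell cannot be told apart.

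A cell that starts to divide first makes the D and E cyclins, which release the E2F transcription factors. E2F turns on the genes that load and fire replication origins, supply deoxynucleotides and hold the polymerase on DNA. Genes for the entry into mitosis, the spindle and the chromosome segregation checkpoint are switched on later, in G2, through promoter elements bound by the NF-Y and MuvB complexes together with B-Myb and FOXM1. In the immature uterus, oestradiol is the classic signal that sends epithelial cells through this sequence. Growing follicles of the ovary are rich in dividing granulosa cells, and the juvenile liver still contains dividing hepatocytes.

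The promoters of the members differed by role in their letters. RefSeq promoter windows of 300 bases (GRCm38.p6, from 250 bases before to 50 bases after the annotated start) were at hand for 30 of the 40 members, of which 11 were replication genes and 15 mitosis genes. The words searched on both strands were CCAAT, the NF-Y box, TTTGAA and TTCGAA, variants of the element bound by MuvB, and TTTGGCGC, TTTCGCGC and TTTCCCGC, which are variants of the E2F site. An E2F word on one strand may overlap one on the other strand. CCAAT together with TTTGAA or TTCGAA was present in 7.52% of all 32851 promoters of the table, in 11 of 15 mitosis members and in 2 of 11 replication members. At least 1 of the 3 E2F words was present in 1.84% of all promoters, in 6 of 11 replication members and in 1 of 15 mitosis members. When only the 150 bases before the start were searched, the first combination was found in 26.7% of the mitosis members and 2.43% of all promoters. A match is a description of the letters only, and binding was not measured.

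The 5 promoters below belong to the members that carry the results that follow, and are written 5′ to 3′ with each matched word (or its reverse complement) in capitals. Kif11 had the largest uterine log2 ratio, Cdc20 is a mitotic promoter with both elements, Mcm5 and Cdc6 had the largest ratios of the ovary and the liver, and Ccne1, the lowest of the uterus, held none of the words.
Kif11, chr19:37376132-37376431, plus strand: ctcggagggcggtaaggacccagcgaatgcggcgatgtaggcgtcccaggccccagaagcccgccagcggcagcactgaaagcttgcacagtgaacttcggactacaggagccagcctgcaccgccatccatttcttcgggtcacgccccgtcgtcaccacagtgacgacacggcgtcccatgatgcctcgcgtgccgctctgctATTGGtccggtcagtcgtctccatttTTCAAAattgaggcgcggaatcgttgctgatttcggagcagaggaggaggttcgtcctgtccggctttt
Cdc20, chr4:118437294-118437593, minus strand: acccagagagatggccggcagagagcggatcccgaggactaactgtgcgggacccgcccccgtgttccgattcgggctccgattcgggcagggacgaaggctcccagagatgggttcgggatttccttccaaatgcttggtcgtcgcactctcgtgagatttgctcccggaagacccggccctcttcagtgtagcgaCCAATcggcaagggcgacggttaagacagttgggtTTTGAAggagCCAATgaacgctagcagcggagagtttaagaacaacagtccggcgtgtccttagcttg
Mcm5, chr8:75109259-75109558, plus strand: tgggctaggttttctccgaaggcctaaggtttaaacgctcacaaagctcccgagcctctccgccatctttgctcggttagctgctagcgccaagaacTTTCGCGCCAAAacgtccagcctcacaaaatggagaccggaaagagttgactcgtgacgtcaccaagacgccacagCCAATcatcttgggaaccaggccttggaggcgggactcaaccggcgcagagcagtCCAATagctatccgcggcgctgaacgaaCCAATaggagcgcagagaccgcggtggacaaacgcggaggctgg
Cdc6, chr11:98907901-98908200, plus strand: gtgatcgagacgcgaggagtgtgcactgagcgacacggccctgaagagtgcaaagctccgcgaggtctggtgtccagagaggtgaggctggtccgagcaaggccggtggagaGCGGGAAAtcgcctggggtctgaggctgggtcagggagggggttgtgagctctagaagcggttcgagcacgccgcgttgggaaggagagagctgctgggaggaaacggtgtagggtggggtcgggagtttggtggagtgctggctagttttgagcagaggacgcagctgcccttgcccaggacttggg
Ccne1, chr7:38107441-38107740, minus strand: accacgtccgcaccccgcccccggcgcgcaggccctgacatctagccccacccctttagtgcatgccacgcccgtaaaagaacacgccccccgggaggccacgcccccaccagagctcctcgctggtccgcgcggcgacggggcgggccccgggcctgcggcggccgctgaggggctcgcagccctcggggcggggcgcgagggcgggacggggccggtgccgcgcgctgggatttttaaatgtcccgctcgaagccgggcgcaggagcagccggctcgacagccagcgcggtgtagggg
In Kif11 both elements lie on the opposite strand, the NF-Y box as ATTGG and close after it the MuvB element in its reverse form. In Cdc20 the MuvB element lies between a pair of NF-Y boxes. In Mcm5, the run TTTCGCGCCAAA joins TTTCGCGC and the reverse of TTTGGCGC in overlapping letters, and in Cdc6 the match GCGGGAAA is TTTCCCGC on the other strand.

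Levels are given as log2 processed intensity relative to the 75th percentile of the array, so that 0 is the signal at that percentile and 1 unit is a doubling. A log2 ratio is the level with BHPF minus the level in the control of the same tissue. The only measure of error on the arrays themselves came from probes spotted several times. Their spread corresponded to a standard deviation of 0.16 for a log2 ratio in the uterus, 0.15 in the ovary and 0.16 in the liver, and it covered spot error only, not the differences between mice. Different probes of 1 gene gave ratios with a pooled standard deviation of 0.23 in the uterus, 0.22 in the ovary and 0.30 in the liver. Of the non-control probes, 61.3% to 74.5% were well above background on an array, and no probe was saturated. The lowest level well above background was higher on the BHPF array of each tissue. It was -5.80 and -5.07 in the control and BHPF uterus, -6.33 and -5.74 in the ovary, and -5.62 and -4.91 in the liver. A dim gene of unchanged level could therefore be counted as above background on the control array only. All arrays came from 1 slide and 1 scan, where the BHPF arrays followed the control arrays in position, so that the treatments cannot be told apart from their places on the slide. All 12 markers of uterine stroma and smooth muscle were above background on both uterus arrays, all 12 granulosa and all 11 measured oocyte markers on both ovary arrays, and all 20 hepatocyte markers on both liver arrays. The lists were not exclusive to their tissues, since all 20 hepatocyte markers were also above background on the BHPF uterus array and all 12 uterine epithelium markers on both liver arrays.

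A limit applies to every uterine sign below. In the authors' table of normalised values, the column headed control uterus held the values of the scanner file deposited as BHPF uterus, and the reverse, for 100% of 38802 probes within 0.001 on the log2 scale, whereas the ovary and liver columns matched their own arrays. Here each scanner file keeps the condition of its own deposited label. If the headings of the table were the right ones, every uterine ratio would change sign and keep its size.

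The ovary had the highest level of nearly all members. Ccne2, cyclin E2, was not well above background on either uterus array. In the controls, with this scaling, 38 of 40 members were highest in the ovary and 2 in the liver, and none was highest in the uterus. The median control level was 1.38 log2 units (2.60-fold) higher in the ovary than in the uterus, whereas the median over 17566 genes was -0.03. In all, 25 members (62.5%) were at least 2-fold higher in the ovary than in the uterus, against 12.5% of all genes. The difference was larger for the 21 members of mitosis, with a median of 1.64, than for the 13 members of replication, with a median of 0.72. The summed level of the 12 granulosa markers (the sum of their levels as linear values) was 105 in the control ovary and 28.8 in the control uterus. It was 44.5 in the control liver, where 9 of 12 were above background, so the list is not exclusive to the ovary. The part of granulosa cells in the difference was not tested. Against the liver, mitosis members were higher in the ovary by a median of 2.32 (5.01-fold) and all 21 were at least 2-fold higher. The order of the uterus and the liver was not settled: the median difference of uterus minus liver was 0.47 with this scaling and -0.10 when the 50th percentile of each array was used.

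Mki67, which encodes the proliferation antigen Ki-67 that coats mitotic chromosomes, had a level of 1.92 in the control uterus, 2.50 in the control ovary and 1.59 in the control liver. Top2a, the topoisomerase that untangles replicated chromosomes, spread further, from 1.81 in the control ovary to -0.08 in the control uterus and -1.27 in the control liver. Ccnd1, cyclin D1, ran the other way, at 2.60 in the control liver, 1.67 in the control uterus and -0.37 in the control ovary. It was the only member lowest in the ovary. Ccne1 was highest in the liver, at -1.80, by 0.26 over the ovary. These 2 members were the exceptions to the ovary's lead with this scaling. With the 50th percentile of each array, the median difference of ovary minus liver over the members was 1.11 instead of 1.57. Members with a small lead over the liver, such as Pcna at 0.15 and Mcm6 at 0.23, were not counted again under it.

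**Figure D1:**
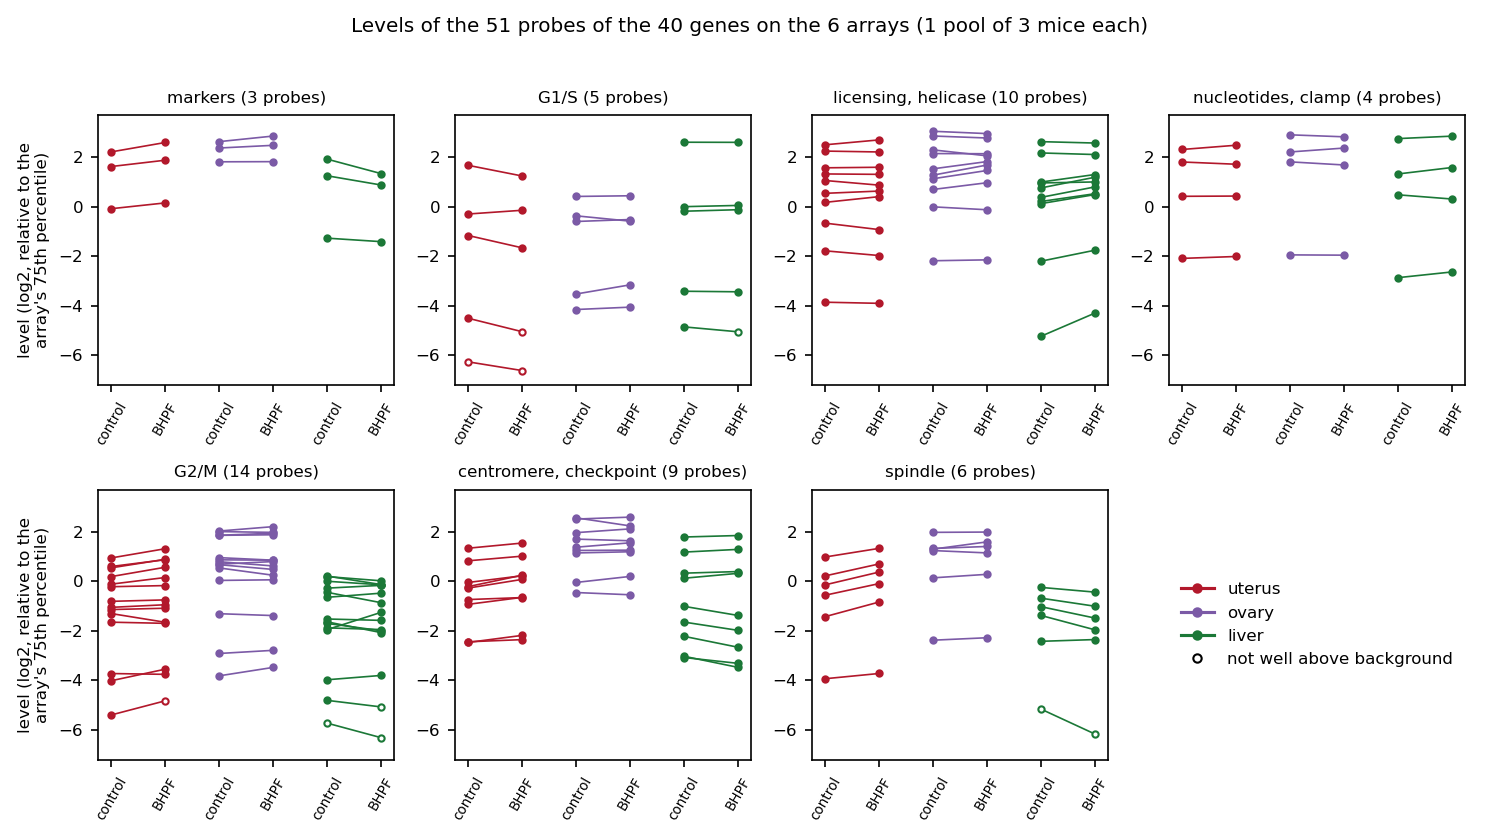
Levels of the 51 probes of the 40 genes on the 6 arrays (vertical axis, log2 relative to the array's 75th percentile), 1 panel for each role, with lines joining the control and the BHPF array of a tissue and open points for probes not well above background. The ovary points of the mitosis panels are shifted upward from those of the uterus and liver, and Ccnd1 is the top probe of the G1/S panel in the liver at 2.60.

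In the uterus, members of mitosis were slightly higher with BHPF, members of replication were not shifted, and cyclins D1 and E1 were lower. Of 39 members that could be evaluated, 29 had a ratio above 0, against 50% of the 16161 genes evaluated, and the median ratio was 0.15 (1.11-fold), against 0.00 for all genes. No member reached a 2-fold difference, the threshold used in the study, and 3.09% of all genes did so in either direction. Kif11 alone was at least 1.5-fold higher, where 4.16% of genes were, and no member was at least 1.5-fold lower, where 2.54% of genes were. By the smaller size of 2 standard deviations between spots (0.32), 9 members were higher and 2 lower, against 10.3% of all genes higher and 8.72% lower. Ccne2 has no uterine ratio.

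The split by role was plain within the 39 members. The 21 members of mitosis had a median of 0.28 (1.21-fold), 19 of them were above 0, and all 9 members higher by more than 2 standard deviations between spots were among them. The 13 members of replication had a median of 0.01, with 7 above 0 and none beyond that size in either direction. The pooling of the role groups into replication and mitosis, and the size of 2 standard deviations, were chosen after the values had been seen. Members are not replicates of each other, since cycling cells express most of them together.

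All 5 spindle genes were higher with BHPF, with a median of 0.48. Kif11, the kinesin that pushes spindle poles apart, was at -1.42 in the control uterus and -0.83 in the BHPF uterus, a log2 ratio of 0.59 (1.51-fold). Nusap1, which bundles spindle microtubules, went from -0.14 to 0.38, a ratio of 0.52. Kif20a, a kinesin of cytokinesis, had a ratio of 0.48 from levels of 0.22 and 0.71. Prc1, which crosslinks microtubules of the central spindle, and Tpx2, which activates Aurora A on the spindle, had ratios of 0.35 and 0.34. The spindle genes lay beyond 2 standard deviations between spots at sizes of 1.27-fold to 1.51-fold with this scaling, but Prc1 was at 0.18 and Tpx2 at 0.26, inside that size, under other ways of scaling or background correction.

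The 7 centromere and checkpoint genes were all above 0, with a median of 0.28. Cenpe, the centromere motor that attaches chromosomes to microtubules, was at -0.21 in the control and 0.25 with BHPF, a ratio of 0.46. Cenpa, the histone variant that marks the centromere, had a ratio of 0.35. Under other ways of scaling or background correction, Cenpa was as low as 0.27 and Cenpe 0.319, inside 2 standard deviations between spots (0.320). The checkpoint kinases Bub1b and Ttk both had a ratio of 0.28, and Bub1 had 0.08. Aurkb, the kinase that corrects wrong attachments, was at -2.44 in the control and -2.35 with BHPF, a ratio of 0.09, and Birc5 (survivin), its partner in the chromosomal passenger complex, was at 0.71 and 0.93, a ratio of 0.22 with its 3 probes between 0.19 and 0.27.

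The 9 G2/M cyclins, kinases and regulators were more mixed, with a median of 0.06 and 7 above 0. Ccna2, cyclin A2, was at 0.95 in the control uterus and 1.32 in the BHPF uterus, a ratio of 0.37. Cdc20, the activator of the anaphase-promoting complex, was at 0.55 and 0.89, a ratio of 0.34. With this scaling, cyclin A2 and Cdc20 were the only members of this group beyond 2 standard deviations between spots. Under other ways of scaling or background correction they were as low as 0.30 and 0.24, inside that size. Cdk1, the mitotic kinase, averaged -1.44 and -1.18 over 3 probes, a ratio of 0.26. Ccnb1, cyclin B1, had a mean ratio of 0.03, but its 3 probes disagreed, at 0.05, -0.35 and 0.38. Plk1, Aurka, Cdc25c and Foxm1 lay between -0.05 and 0.06. Foxm1 averaged -3.22 and -2.88, and 1 of its 2 probes was not well above background on the BHPF array.

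Mki67 was at 1.92 in the control uterus and 2.24 in the BHPF uterus, a ratio of 0.32 that both of its probes shared in sign (0.38 and 0.25). Top2a had a ratio of 0.23. Neither marker of cycling cells was lower with BHPF in this pair of pools.

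Among the 9 genes that license and unwind origins, 4 were above 0 and the median was -0.02. Mcm2 of the replicative helicase was at 1.32 and 1.31, a ratio of -0.02, and Mcm5 was at 0.54 and 0.63, a ratio of 0.09. The lowest were Gins1, a subunit of the helicase's GINS partner, at -0.26, and Mcm3 at -0.19. The highest was Cdt1, which loads the helicase, at 0.23. Pcna, the sliding clamp, was at 2.31 and 2.48, a ratio of 0.17, and Rrm2, the regulated subunit of ribonucleotide reductase, was at 0.42 and 0.43, a ratio of 0.01. Rrm1 and Tyms, which also serve the supply of deoxynucleotides, had ratios of -0.09 and 0.08.

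The members furthest below 0 with BHPF in the uterus were G1/S cyclins. Ccne1, cyclin E1, averaged -2.83 in the control uterus and -3.35 in the BHPF uterus, a ratio of -0.52. Its brighter probe went from -1.16 to -1.66 (-0.50). Its dimmer probe was not well above background with BHPF and gave -0.54 from its own dim level. Ccnd1 was at 1.67 and 1.24, a ratio of -0.43. E2f1, whose product switches on replication genes, was at -0.29 and -0.14, a ratio of 0.15. Cyclins D1 and E1 were the 2 members lower by more than 2 standard deviations between spots, and with normexp background correction Ccne1 was at -0.24, inside that size.

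**Figure D2:**
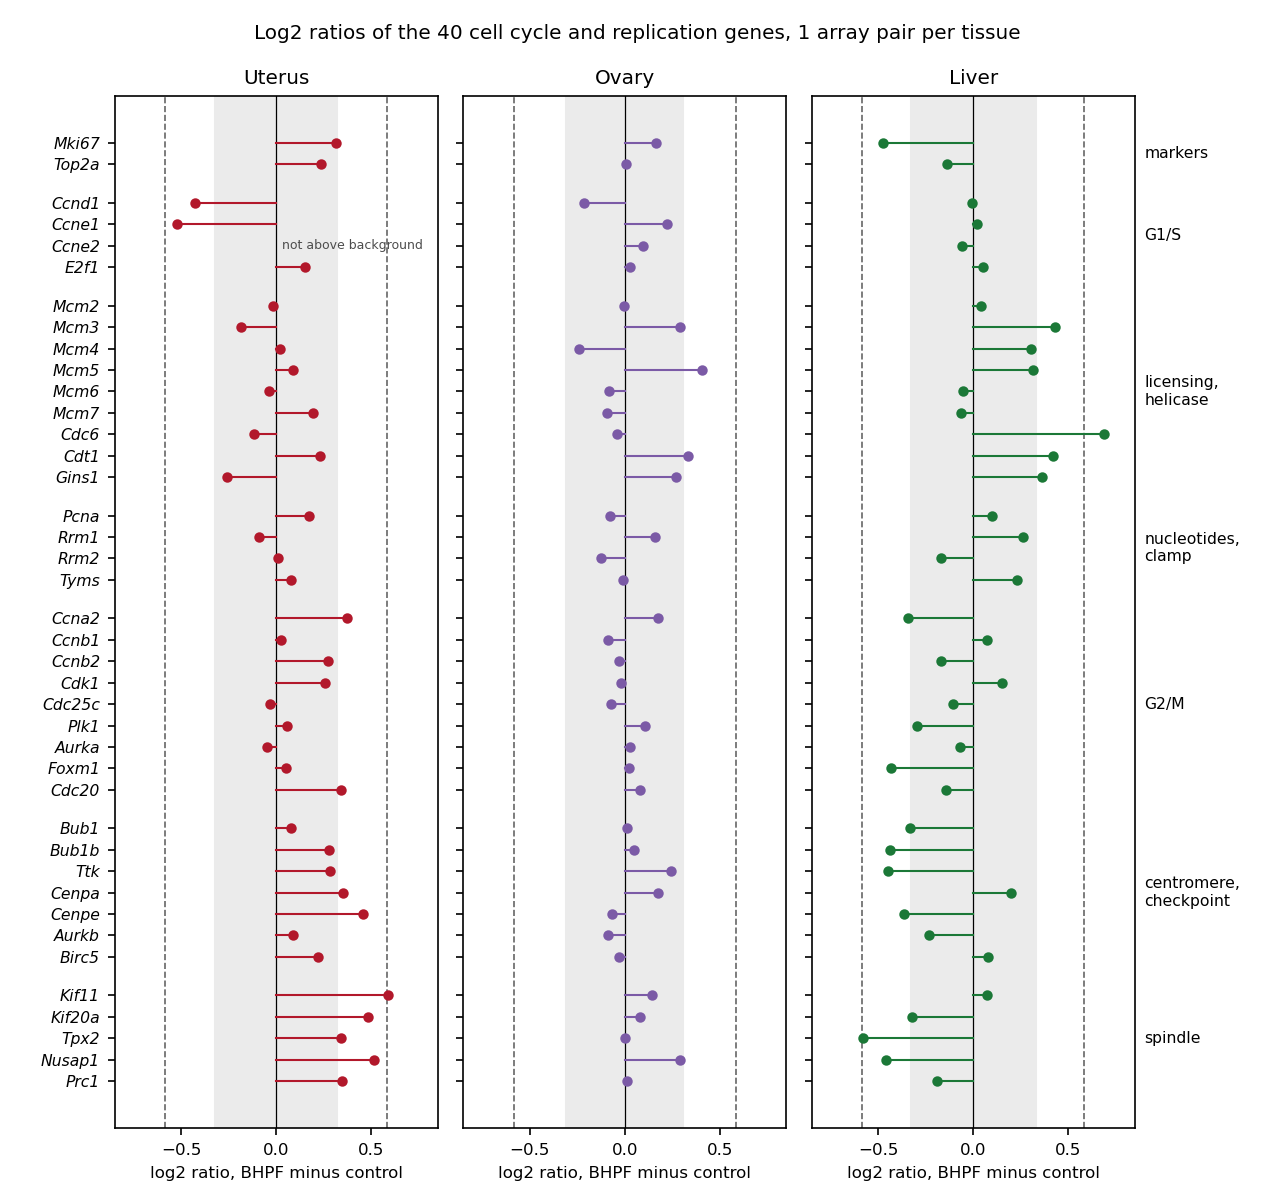
Log2 ratios (BHPF minus control, horizontal axis) of the 40 genes in the 3 tissues, ordered by role, each point 1 gene from 1 pair of arrays. Grey bands show 2 standard deviations of a ratio between spots and dashed lines show 1.5-fold: 9 mitosis genes lie right of the band in the uterus with Kif11 furthest at 0.59, Ccne1 and Ccnd1 lie left of it, and in the liver Cdc6 lies furthest right at 0.69.

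Genes of the same pathway that were not members were split in the same way in the uterus. Of 60 other mitosis genes, 49 were above 0 and the median was 0.20. They included Troap at 0.92, the spindle gene Aspm, at -1.17 in the control and -0.48 with BHPF (0.70), and Ska1, of the kinetochore, at 0.56, whereas Mad2l1 of the spindle checkpoint was lowest at -0.37. Beyond 2 standard deviations between spots, 20 were higher and 1 lower. Of 46 other replication genes, 29 were below 0, the median was -0.03, and 7 were lower and 1 higher by that size. Gins2, a subunit of the same complex as Gins1, was at 0.54 in the control and -0.91 with BHPF, a ratio of -1.45 (2.74-fold lower) on a single probe. Exo1, a nuclease of repair and replication, was at -0.68, and Pole2, of the leading strand polymerase, at -0.54. Most of the other replication genes were within the spread of the spots.

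Of 13 other G1 genes, 6 were above 0, the median was 0.00, and Myc had the highest ratio, 0.32. Of 21 inhibitors and cell cycle brakes, 13 were above 0 with a median of 0.09. Cdkn1a, which encodes p21, was at -1.86 in the control and -2.41 with BHPF, a ratio of -0.56, and Cdkn2c, which encodes p18, had a ratio of 0.36. The 15 evaluated uterine oestrogen targets had a median of -0.20, with 11 below 0, where all genes had a median of 0.00 and 50% were above 0. This list is not separate from the others. It shares Cdkn1a with the inhibitors, Ltf and Lcn2 with the neutrophil markers, Pgr with the stroma markers and Inhbb with the granulosa markers. Sprr2f, a small proline-rich protein of the epithelium, was at 2.93 in the control and 1.60 with BHPF, a ratio of -1.33, and Lcn2 had -0.69. Lactoferrin, Ltf, had 0.04.

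Hepatocyte markers were higher on the BHPF uterus array. All 20 hepatocyte markers were above 0, 19 were at least 2-fold higher, and their median ratio was 4.27. Their summed level was 3.30 in the control uterus, 50.9 in the BHPF uterus and 641 in the control liver, and 15 of 20 were above background in the control uterus and all 20 in the BHPF uterus. Albumin, Alb, was at -0.92 in the control uterus, 3.36 in the BHPF uterus and 6.07 in the control liver. The excess over the control uterus amounted to a median of 6.29% of the control liver level over the 20 markers, with quartiles of 0.97% and 9.32%. The single markers ran from 0.41% for Fga to 15.6% for Ttr, so the median share is a rough figure. When that share of the control liver signal was subtracted from the BHPF uterus array, the median of the mitosis members minus that of all genes was 0.35. It was 0.28 without the subtraction. No member reached 2-fold, and 3 members instead of 1 were at least 1.5-fold higher or lower. The part of liver RNA in the uterine ratios was not tested. Lymphocyte markers had a median of 0.28 in the uterus (9 of 10 above 0) and neutrophil markers -0.53 (8 of 11 below 0), with summed neutrophil levels of 50.5 and 40.8. The neutrophil list shares Ltf and Lcn2 with the oestrogen targets. Lcn2 alone was at 4.24 in the control uterus and 3.55 with BHPF, so the sum is not a measure of neutrophils only. Erythroid precursor markers had a median of 0.31 (5 of 8 above 0), summed levels of 19.2 in the control and 24.5 with BHPF, and 8 and 7 of 11 above background. Their part in the result was not tested. The summed level of the 12 uterine epithelium markers was 59.9 in the control and 63.1 with BHPF, and that of the 12 stroma and smooth muscle markers was 105 and 103.

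In the ovary, where nearly all members were most highly expressed, their ratios were small. All 40 members were evaluated, the median ratio was 0.02 (0.01 for all genes), and 24 were above 0, against 51.6% of 16863 genes. None was at least 1.5-fold higher or lower, sizes that 1.46% and 2.02% of genes reached, and 1.09% of genes reached 2-fold. Mcm5 was at 1.28 in the control ovary and 1.68 with BHPF, a ratio of 0.41, and Cdt1 had 0.33. With this scaling these 2 were the only members beyond 2 standard deviations between spots in the ovary. Both were higher, where 6.59% of all genes were higher and 7% lower. Under other ways of scaling or background correction they were as low as 0.15 and 0.30, inside that size (0.31). Of the other subunits of the same helicase, Mcm3 was also above 0, at 0.29, but the rest did not share the ratio of Mcm5. Mcm4 was the lowest member of the ovary at -0.24, and Mcm2, Mcm6 and Mcm7 lay between -0.09 and -0.01. Mcm2 itself was at 2.15 and 2.14, Pcna at 2.90 and 2.82, and Rrm2 at 1.81 and 1.69.

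The 21 mitosis members of the ovary lay between -0.09 and 0.29 with a median of 0.02, the narrowest range of the 3 tissues. Mki67 was at 2.50 and 2.67 in the ovary, a ratio of 0.17, and Top2a was at 1.81 and 1.82. Cdk1 was at -0.41 and -0.43, Ccna2 at 2.04 and 2.21, and Ccnb1 at 1.17 and 1.08. Cdc20 was at 1.86 and 1.95, Foxm1 at -1.63 and -1.61, Aurkb at -0.45 and -0.54, and Birc5 at 2.35 and 2.32. None of these pairs differed by as much as 2 standard deviations between spots. Nusap1 was the highest of the mitosis members at 0.29. Among G1/S genes, Ccne1 was at -2.06 and -1.84 (a ratio of 0.22), Ccnd1 at -0.37 and -0.58 (-0.21) and E2f1 at 0.42 and 0.44. Other mitosis genes (median 0.03, 60 genes) and other replication genes (median 0.04, 48 genes) were as close to 0, and Knl1, a kinetochore scaffold, was the only 1 of them at least 1.5-fold lower, at -0.61. Granulosa markers had a median of 0.08 and a summed level of 105 and 110 in the control and BHPF ovary. All 10 evaluated neutrophil markers of the ovary were below 0 with a median of -1.06, 5 were at least 2-fold lower, and their summed level was 15.9 in the control and 12.3 with BHPF. Of 11 lymphocyte markers 10 were below 0, with a median of -0.35. Their part in the ovarian ratios was not tested.

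In the liver the order of the groups was the reverse of that in the uterus. The median over all 40 members was -0.06, and 17 were above 0, against 49.7% of 15530 genes. The 13 replication members had a median of 0.26 (1.20-fold) with 10 above 0, and the 21 mitosis members had a median of -0.24 (0.850-fold) with 16 below 0. Cdc6 alone was at least 1.5-fold higher, where 7.16% of genes were, no member was at least 1.5-fold lower, where 4.69% of genes were, and 4.74% of genes reached 2-fold. Beyond 2 standard deviations between spots, 4 members were higher, all of them of origin licensing, and 9 were lower, of which 8 were of mitosis, where 14.9% of all genes were higher and 11.9% lower. These signs depend on the scaling. With the 50th percentile of each array the median of all liver genes moved to -0.30, 4 of 13 replication members and 0 of 21 mitosis members were above 0, and relative to all genes the medians were 0.24 and -0.25. With normexp background correction they were 0.18 and -0.11 relative to all genes.

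Cdc6, which recruits the helicase to origins, was low in the liver, at -3.71 in the control and -3.03 with BHPF, a ratio of 0.69 (1.61-fold). Its 2 probes gave 0.94 and 0.44, the larger from the dimmer probe. Mcm3 had 0.43, Cdt1 0.42 and Gins1 0.36. Mcm5 was at 0.21 and 0.53, a ratio of 0.31, and Mcm2, at 0.96 in the control, had 0.04. Mcm6 and Mcm7, which belong to the same ring as Mcm3 and Mcm5, both had -0.06. Pcna was at 2.75 and 2.85, and Rrm2 at 0.48 and 0.31, so the members of replication did not move as a unit.

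Tpx2 was the lowest member of the liver, at -1.37 in the control and -1.95 with BHPF on the 1 probe above background there, a ratio of -0.58 that lies just inside 1.5-fold. Mki67 was at 1.59 and 1.11, a ratio of -0.48, with -0.58 and -0.37 on its 2 probes. Nusap1 had -0.46, Ttk -0.45, Bub1b -0.44 and Foxm1, the transcription factor of the mitotic genes, -0.43 (-1.63 and -2.07 on its brighter probe). Ccna2 was at 0.22 and -0.13, a ratio of -0.34, and Aurkb at -3.07 and -3.31, a ratio of -0.24. Top2a, at -1.27 and -1.41, and Cdc20, at 0.01 and -0.13, both had -0.14.

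Not every mitosis gene of the liver was lower. Cdk1 averaged -1.63 and -1.48, a ratio of 0.15 with all 3 probes above 0, Cenpa had 0.20, and Birc5, at 1.18 with BHPF, had 0.08. Ccnb1 had a mean ratio of 0.07 that stands for no single value, since its 3 probes gave -0.06, 0.70 and -0.42. The G1/S genes lay between -0.06 and 0.05, with Ccnd1 at 2.60 on both arrays, Ccne1 at -1.80 and -1.78, and E2f1 at 0.00 and 0.05.

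In the liver the other genes of the pathway followed the members only in part. Of 47 other replication genes 31 were above 0, with a median of 0.10, and Cdc45, the helicase partner, was at -4.89 and -3.81, a ratio of 1.08. Of 59 other mitosis genes 27 were above 0, with a median of -0.01, as compared with -0.24 for the members. Their ratios ran from Pimreg at -1.44 to Hmmr at 0.86, and 16 were lower and 8 higher by more than 2 standard deviations between spots. Of 20 inhibitors, 12 were below 0, and Cdkn1a was at -1.63 and -2.06, a ratio of -0.43.

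Markers of blood cells moved with the liver pair. All 12 neutrophil markers that were evaluated were below 0 with a median of -2.32, 9 were at least 2-fold lower, and their summed level was 93.9 in the control and 41.1 with BHPF. Of 10 erythroid precursor markers 8 were below 0 with a median of -0.34, and their summed levels were 55.6 and 53.3. In the control liver 10 of 11 were above background and with BHPF 7 of 11, but the lowest level that passed was higher on the BHPF array. Hepatocyte markers had a median of 0.00 and summed levels of 641 and 622. The part of these cells in the lower mitosis members of the liver was not tested.

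**Figure D3:**
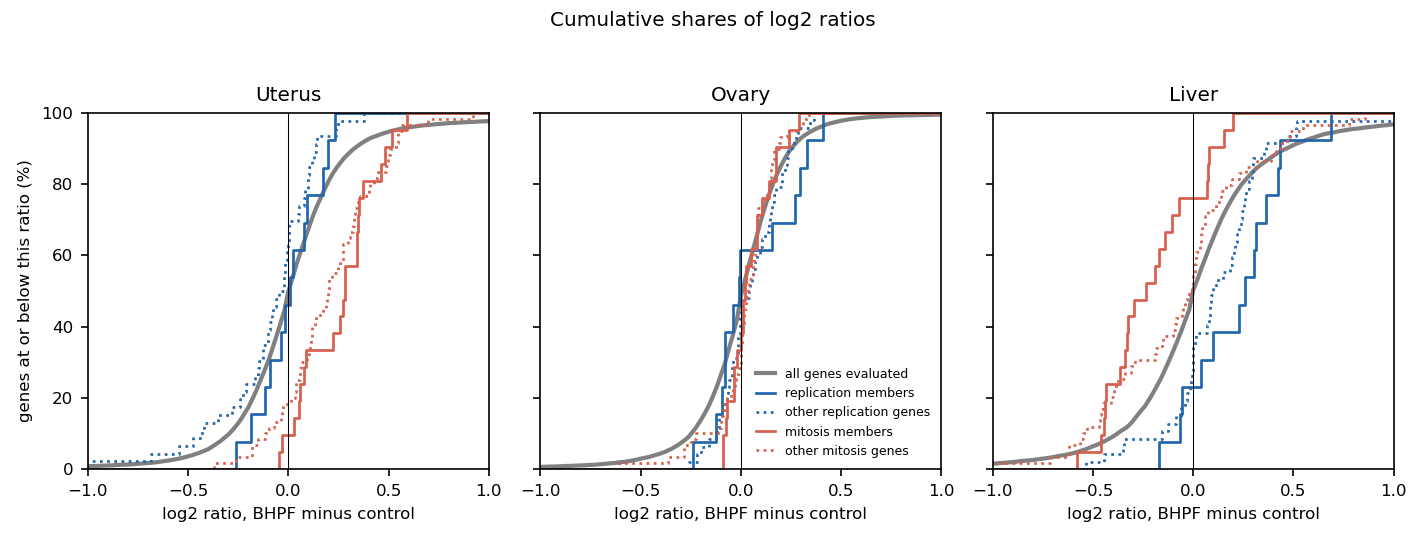
Share of genes at or below each log2 ratio (vertical axis in percent, horizontal axis BHPF minus control) for replication and mitosis members, the other genes of each pathway and all evaluated genes. In the uterus both mitosis curves lie to the right of all genes (medians 0.28 and 0.20), in the ovary all curves lie together, and in the liver the mitosis members lie to the left (median -0.24) and the replication members to the right (median 0.26, or -0.05 when the 50th percentile is used for scaling).

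The uterus and the liver thus differed in sign for many mitosis members. Of the 21 mitosis members, 14 were above 0 in the uterus and below 0 in the liver, and 0 were the other way round, whereas 24.3% of the 14843 genes evaluated in both tissues were above 0 in the uterus and below 0 in the liver. Both markers, Mki67 and Top2a, did the same. Of the 13 replication members, 2 had that pattern and 5 the opposite one. Of 59 other mitosis genes, 24 had that pattern, 5 the opposite one, and 22 were above 0 in both tissues. The liver signs depend on the processing, under which 0 to 6 of the 21 mitosis members were above 0. The difference of uterine and liver ratios was 0.97 for Nusap1, 0.92 for Tpx2, 0.83 for Cenpe and 0.71 for Ccna2. With 1 array in each group the difference between the tissues was not tested, and this tally was made after the values had been seen.

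**Figure D4:**
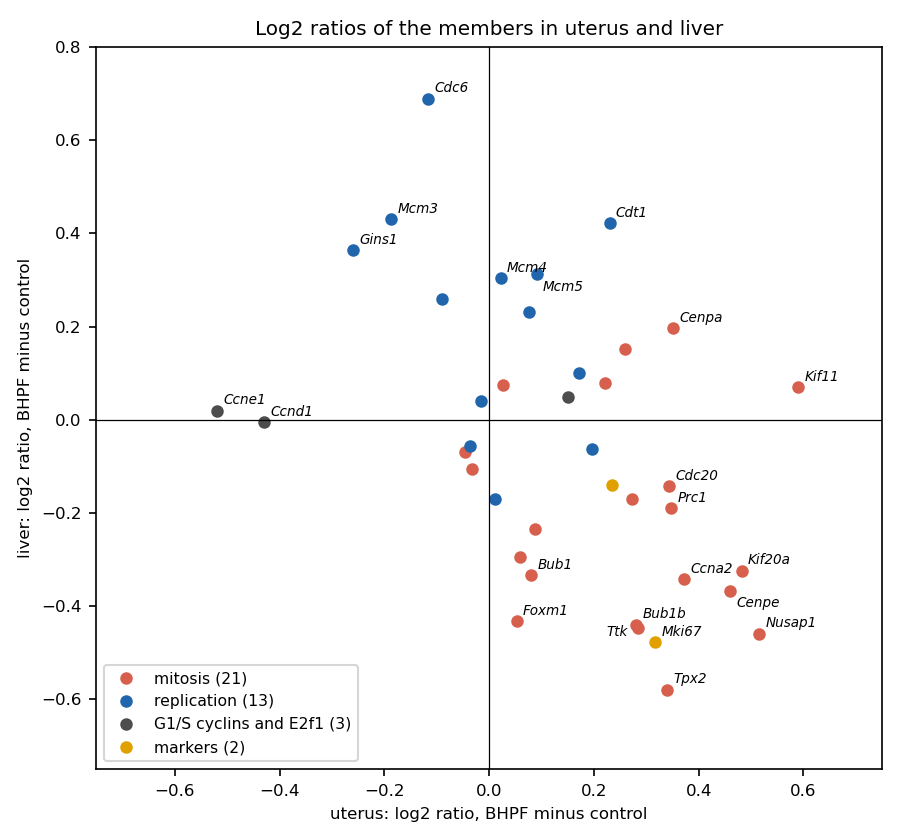
Log2 ratio in the uterus (horizontal axis) against that in the liver (vertical axis) for the 39 genes evaluated in both, coloured by role, each point 1 gene. The lower right part, higher with BHPF in the uterus and lower in the liver, holds 14 of the 21 mitosis genes and 2 of the 13 replication genes.

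When the members were sorted by the words in their promoters instead of by role, the sets that held either kind of word fell in a like order. The 15 members with CCAAT and TTTGAA or TTCGAA, among them Kif11, Cdc20, Plk1, Top2a and Mki67, had a median of 0.27 in the uterus (13 above 0), 0.03 in the ovary and -0.14 in the liver (4 above 0). The 7 members with an E2F word were Mcm3, Mcm5, Mcm6, Mcm7, Cdc6, Cdt1 and Cdk1. They had a median of 0.09 in the uterus (4 above 0), -0.02 in the ovary (3 above 0) and 0.31 in the liver (5 above 0). As for the roles, liver signs depend on the scaling. Mcm7 and Cdk1 belonged to both sets. The 10 members that held neither kind had a median of 0.11 in the uterus (8 above 0), -0.02 in the ovary and 0.06 in the liver. Among them Nusap1, Cenpe and Birc5 had ratios of 0.52, 0.46 and 0.22 in the uterus, and Ccne1 had -0.52. The sets with either kind of word follow the roles closely, so that role and promoter letters cannot be told apart here.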

How the data were processed

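RNA pools of 3 mice were measured on 6 one-colour Agilent arrays. The deposited scanner files held processed intensity, which the authors extracted with Feature Extraction (version 9.1 in the submitters' processing notes and 11.5.1.1 in the file header) and, by the methods, normalised by percentile shift. The deposited table held log2 values from the authors, with the uterus columns exchanged against the scanner files, and served as an alternative. Here log2 intensity minus the 75th percentile of 55681 non-control probes was used, without spots flagged as outliers. A probe was evaluated in a tissue if either of its arrays showed it well above background. A probe dim on 1 array was set there to the lowest level well above background, or to its own if higher. Probes of a gene were averaged. Symbols came from transcript accessions through RefSeq (GRCm38.p6), for 26762 probes.

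Counts were made at 2-fold, the threshold of the methods, and 1.5-fold. The number of arrays limits the precision, and p-values were not computed. All 40 members could be named. The values of every array were to be given for 16 of them and for the 5 largest rises and falls of a tissue, and 3 rises and 3 falls for the other lists. The members and lists were chosen with earlier results of these data known. The calculation was tested on simulated data. Python 3.11.15, pandas 2.3.3, R 4.3.3 and limma 3.58.1 were used.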

Additional observations from a re-analysis of the deposited data

Results flagged for a closer look

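The log2 ratios of 4 members had opposite signs in the uterus and the liver, each beyond 2 standard deviations of a ratio between spots. Nusap1, at 0.52 in the uterus and -0.46 in the liver, differed by 0.97. Tpx2 (0.34 and -0.58) differed by 0.92, Cenpe (0.46 and -0.37) by 0.83 and Ccna2 (0.37 and -0.34) by 0.71. Under other ways of scaling or background correction, Tpx2 and Ccna2 were as low as 0.26 and 0.30 in the uterus. In the liver, Cenpe and Ccna2 were as high as -0.21 and -0.14. These values lie inside 2 standard deviations between spots, whereas Nusap1 stayed beyond that size in both tissues. The difference between the tissues was not tested, since each group had 1 array. All 4 are genes of mitosis, and their uterine signs rest on the labels of the scanner files.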

How the results depend on the processing

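Under the authors' table with its columns as headed, the uterine medians were -0.17 for all members (10 above 0), -0.28 for mitosis members (2 above 0), -0.20 for other mitosis genes and -0.093 for inhibitors, and Kif11 was at -0.59. This follows from the exchanged columns. Under the other 10 alternatives the uterine median of all members stayed between 0.08 and 0.18 and that of the mitosis members between 0.20 and 0.33. With the 50th percentile the liver medians were -0.37 for all members (4 above 0), -0.054 for replication members (4 above 0), -0.55 for mitosis members (0 above 0), -0.17 for other replication genes, -0.32 for other mitosis genes, -0.24 for other G1 genes and -0.44 for inhibitors, and 11 members were at least 1.5-fold lower or higher instead of 1. With normexp background correction the liver median of the mitosis members was -0.080. With quantile normalisation 3 liver mitosis members were above 0. With normexp background correction the ovarian median of the replication members was 0.14 (9 above 0), and the cause was not tested. The control difference of ovary minus liver was 1.11 with the 50th percentile and 1.95 with the percentile over probes above background on all 6 arrays, and that of uterus minus liver -0.10 and 0.83. In the 150 bases before the start, CCAAT with TTTGAA or TTCGAA was held by 26.7% of mitosis and 0% of replication members. For single members, 595 of 678 values moved by less than the spread between spots and the others moved further. Over 5 alternatives of scaling, background correction and probe choice, 31 of 39 uterine, 23 of 40 ovarian and 25 of 40 liver members kept their sign, and Mcm2, Rrm2, Plk1 and Aurkb were among those that did not in the uterus. No member reached 2-fold under any alternative in any tissue. No paired analysis was possible because each tissue had 1 array in each group, so that no array could be left out of a tissue's ratio. A common effect over the 3 tissue pairs was not fitted. Dim probes, such as those of Ccne2 in the uterus and Cdc25c in the liver, gave bounds or no value.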
